A study of Mus musculus with 9 samples.

Results

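The levels of 9 genes of the Six-, Eya- and Dach-type families were followed through the fusion stages of the mouse upper lip: Six2, Six4, Six5, Eya1, Eya2, Eya3, Eya4, Dach1 and Dach2. They were taken by symbol, and all 9 were found among the 54532 genes of the table. The tissue was the lambdoidal junction, where the maxillary prominence joins the nasal ones, dissected from C57BL/6J embryos of embryonic day 10.5 (E10.5), E11.5 or E12.5. The embryos carried no mutation and had no treatment in the labels, so stage was the only labelled difference between the groups. Any difference in dissection or library batch between stages is not labelled and cannot be told apart from stage. Each stage had 3 RNA-seq libraries, and each library was made from the pooled tissue of many embryos. A value is therefore an average over embryos and over all cell types of the junction, and a library with fewer cells of a type cannot be told apart from one with less RNA per cell.

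Six-family proteins are homeobox transcription factors that bind DNA. Eya proteins do not bind DNA themselves. They are recruited by Six-family proteins as coactivators and also carry a phosphatase domain. Dach proteins are related to the Ski and Sno corepressors and act with Six-family and Eya proteins at shared target genes. The network was first worked out in the fly eye, and in vertebrates it marks the ectoderm from which the cranial placodes form, among them the olfactory placode beside the junction. Several of its members are also active in mesenchyme, muscle precursors, the ear and the kidney.

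In the junction the members did not move as a unit. Eya4 rose 1.24 on the log2 scale between E10.5 and E11.5, and its level stayed high at E12.5. Dach1 fell in each interval, by 1.64 on the log2 scale over the whole span, and Dach2 fell between E10.5 and E11.5. Six4 and Eya1 fell between E11.5 and E12.5. Six2 and Six5 were higher at E12.5 than at E10.5. The calls of Six2, Six5 and Eya1, and those of Dach1 and Dach2 in the first interval, were lost when certain single libraries were left out. Eya2 and Eya3 were not called in the fits on which the report rests. Eya2 passed the test under some other settings, and Eya3 when E12.5 replicate 2 was left out.

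The genes lie on 9 different chromosomes, and no exon base of any of them is shared with another gene of the GENCODE vM21 annotation. In GRCm38 coordinates Six2 (ENSMUSG00000024134) is at chr17:85684277-85688274, Six4 (ENSMUSG00000034460) at chr12:73099609-73113456 and Six5 (ENSMUSG00000040841) at chr7:19094594-19098549. Eya1 (ENSMUSG00000025932) is at chr1:14168954-14310235, Eya2 (ENSMUSG00000017897) at chr2:165595032-165771727, Eya3 (ENSMUSG00000028886) at chr4:132638987-132724765 and Eya4 (ENSMUSG00000010461) at chr10:23102963-23350786. Dach1 (ENSMUSG00000055639) is at chr14:97786853-98169765 and Dach2 (ENSMUSG00000025592) at chrX:113297510-113836386. Six5, Eya2, Eya3 and Dach2 are on the plus strand and the others on the minus strand. The compact genes Six2 and Six5 have a GC content of 61.2% and 61.1% in their longest transcript. Dach2 has the lowest GC content of the 9, at 39.1%.

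Sequences upstream of a RefSeq start are shown for the 5 genes that differed between E12.5 and E10.5. These are the genes with the largest net change, and their base composition differs widely. RefSeq promoter windows on GRCm38.p6 were found for 7 of the 9 genes, not for Eya1 and Eya2, and hold 250 bases before and 50 after a start. Printed are the bases of a window that lie before its first base in an annotated exon of the gene. They are on the strand of the gene and 5′ to 3′. For Eya4 these bases lie inside the annotated gene, in none of its exons. Capitals mark CG dinucleotides.
Six2 (chr17:85688275-85688504, minus strand): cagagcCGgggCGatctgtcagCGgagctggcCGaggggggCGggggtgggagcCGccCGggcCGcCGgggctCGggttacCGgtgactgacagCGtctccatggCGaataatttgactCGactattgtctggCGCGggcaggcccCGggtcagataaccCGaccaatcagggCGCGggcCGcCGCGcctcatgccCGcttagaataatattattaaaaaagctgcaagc
Six5 (chr7:19094294-19094543, plus strand): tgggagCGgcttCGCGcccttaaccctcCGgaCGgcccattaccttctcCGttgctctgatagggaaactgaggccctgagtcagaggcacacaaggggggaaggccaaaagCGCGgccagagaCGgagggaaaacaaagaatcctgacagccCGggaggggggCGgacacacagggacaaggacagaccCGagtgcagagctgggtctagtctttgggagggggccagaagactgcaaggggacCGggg
Eya4 (chr10:23350137-23350193, minus strand): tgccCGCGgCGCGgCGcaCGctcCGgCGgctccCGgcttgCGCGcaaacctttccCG
Dach1 (chr14:98169766-98170015, minus strand): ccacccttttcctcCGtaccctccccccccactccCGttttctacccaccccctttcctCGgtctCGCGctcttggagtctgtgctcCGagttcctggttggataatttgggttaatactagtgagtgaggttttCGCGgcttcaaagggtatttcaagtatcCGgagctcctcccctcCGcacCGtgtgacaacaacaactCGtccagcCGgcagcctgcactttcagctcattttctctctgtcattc
Dach2 (chrX:113297260-113297509, plus strand): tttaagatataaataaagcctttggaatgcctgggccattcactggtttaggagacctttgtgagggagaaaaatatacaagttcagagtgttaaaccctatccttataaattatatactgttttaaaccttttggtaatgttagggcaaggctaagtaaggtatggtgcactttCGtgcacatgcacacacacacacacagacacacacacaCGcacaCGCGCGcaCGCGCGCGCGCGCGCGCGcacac

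The Six2 stretch holds 24 CG dinucleotides in 230 bases and the Eya4 stretch 12 in 57 bases. The Six5 and Dach1 stretches hold 13 each in 250 bases. The Dach2 stretch holds 14 in 250 bases, most of them in a run of repeated CG at its 3′ end. Over the whole windows the GC content was 67.3% for Six2, 66.0% for Six5 and 69.3% for this Eya4 window, against 54.0% for Dach1 and 45.3% for this Dach2 window, and the median over all windows was 52.7%. The other Dach2 window, at a second RefSeq start, had 66.3%, and the other Eya4 window 64.0%.

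The 10 windows of the 7 genes were searched on both strands for TGATAC and TCAGGTT, letters found in sites that Six-family proteins bind. TGATAC was in none of them and in 5.46% of all 32851 windows. TCAGGTT was in 1 member window, that of Six4, and in 4.07% of all windows. The match lies 97 bases before the RefSeq start, on the opposite strand, and within bases that GENCODE vM21 annotates as transcribed. It is shown with the matched letters in capitals.
Six4 (chr12:73113326-73113352, minus strand): gcctgggggaAACCTGAtcggccagat

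The libraries held 16581009–20836804 counts each. All 6 facial mesenchyme markers and all 6 surface epithelium markers were above 3 counts in at least 1 library. E10.5 replicate 3 stood apart from the other libraries of its stage. Its log2 values differed from those of replicates 1 and 2 with an SD over genes of 0.711 and 0.703, against 0.393 between replicates 1 and 2, and the differences went with gene GC content (Spearman's rho across genes of -0.524 and -0.537, a description over genes that share the libraries). Relative to the mean of replicates 1 and 2, its level was 0.406 times for Six2 and 0.559 times for Six5, the most GC-rich members, and 1.66 times for Dach2, the least GC-rich. For the other 6 members it was 0.861 to 1.18 times. The summed level of the facial mesenchyme markers was 815 CPM in it and 1370 and 1390 CPM in the others, and that of the surface epithelium markers 675 CPM against 372 and 424 CPM. The differences of the 9 genes from E10.5 are therefore given with and without this library. At the later stages, the SD between pairs of libraries was 0.373 to 0.417 at E11.5 and larger at E12.5, at 0.494 to 0.591.

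Levels are given as CPM, a gene's share of a library's counts scaled to a common depth, on library sizes scaled by TMM, which allows a gene to be compared between libraries. Levels of different genes are compared in FPKM, which also divides by gene length. All 9 genes passed the filter on low counts in every comparison. The lowest count of any of them was 67, for Dach2, and the highest 6136, for Six2.

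Among the DNA-binding Six-family genes, Six2, known for keeping progenitors undifferentiated in the kidney and for its expression in facial mesenchyme, had the highest level per length of the 9 genes at all 3 stages. Six2 was at 206, 202 and 82.7 CPM in replicates 1 to 3 of E10.5, at 276, 291 and 323 CPM at E11.5 and at 338, 300 and 281 CPM at E12.5. Every E10.5 library lay below every later one, E10.5 replicate 3 was far below the other libraries of its stage, and the E11.5 and E12.5 libraries overlapped. Six2 was 0.92 ± 0.30 (log2, SE) higher at E12.5 than at E10.5, with an adjusted p of 0.0442 in edgeR's quasi-likelihood test. The difference between E11.5 and E10.5 was 0.86 ± 0.30 with an adjusted p of 0.108. Without E10.5 replicate 3 these were 0.60 (adjusted p = 0.0176) and 0.55 (adjusted p = 0.000133). The E12.5 call was lost without any single one of the E12.5 libraries, with adjusted p of 0.0922 to 0.144.

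Six4 binds the same kind of site as its family members and has a role in muscle and sensory neurons. Its level was 59.9, 62.2 and 66.1 CPM at E10.5, 83.5, 76.2 and 72.9 CPM at E11.5 and 37.3, 53.5 and 40.8 CPM at E12.5. All 3 libraries of E11.5 were above those of E10.5, and all 3 of E12.5 were below those of both earlier stages. Six4 fell by 0.82 on the log2 scale between E11.5 and E12.5 (SE 0.15, adjusted p = 0.00594), and the call held in all 6 fits that left out 1 library. The rise before it was 0.31 ± 0.10 in size and did not pass the test on all libraries (adjusted p = 0.0941). Without E10.5 replicate 3 it was 0.35 (adjusted p = 0.00378). E12.5 against E10.5 gave -0.51 ± 0.19 (adjusted p = 0.0695), and -0.46 without that library (adjusted p = 0.0792).

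Six5, which lies beside the gene mutated in myotonic dystrophy, was at 57.5, 46.9 and 29.2 CPM at E10.5, 56.6, 56.9 and 62.9 CPM at E11.5 and 78.6, 68.1 and 70.5 CPM at E12.5. The E12.5 libraries were above all others, while E10.5 and E11.5 overlapped. The difference between E12.5 and E10.5 was 0.71 ± 0.23 (adjusted p = 0.0467). It stayed at an adjusted p of 0.0491 without E10.5 replicate 3, at 0.48, and was not called without E10.5 replicate 2 or without any of the E12.5 libraries (adjusted p of 0.0834 to 0.158). Neither single interval passed the test (0.40 with adjusted p = 0.273, and 0.29 with adjusted p = 0.127). The first was 0.18 (adjusted p = 0.16) without E10.5 replicate 3.

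**Figure D1:**
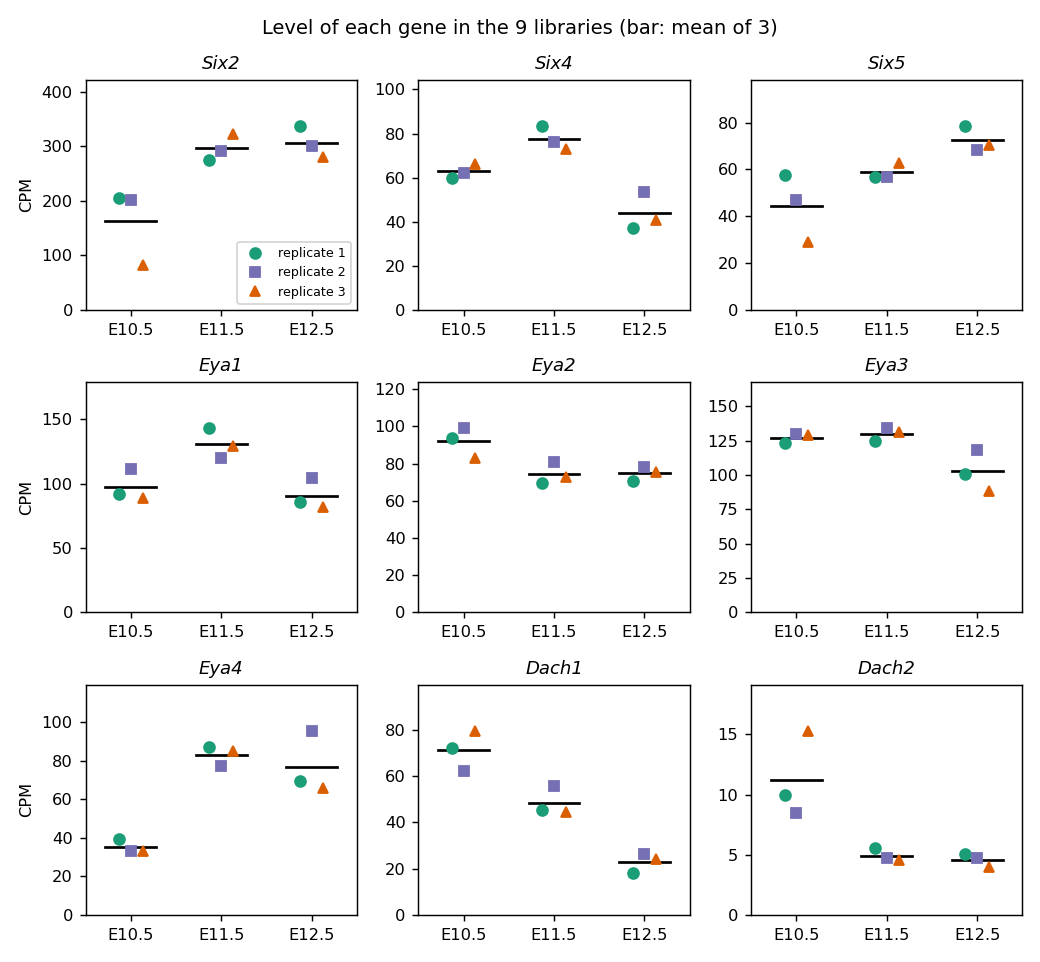
Level of each of the 9 genes in CPM (vertical axis from 0) against stage, with 1 point per library by replicate number and a bar at the mean of 3. Eya4 steps up after E10.5, Dach1 steps down at each stage, and E10.5 replicate 3 is the low point for Six2 and Six5 and the high point for Dach2.

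Of the Eya coactivators, Eya4, a gene known for deafness and heart muscle disease when mutated in humans, had the largest log2 fold change in any comparison. It was at 39.6, 33.1 and 33.3 CPM at E10.5, at 86.9, 77.3 and 85.3 CPM at E11.5 and at 69.7, 95.6 and 65.8 CPM at E12.5. The E10.5 libraries lay far below all later ones, and the later stages overlapped, with E12.5 replicate 2 the highest of all. Eya4 rose by 1.24 ± 0.12 between E10.5 and E11.5 (adjusted p = 0.0013) and was 1.13 ± 0.20 higher at E12.5 than at E10.5 (adjusted p = 0.00198). Leaving out any 1 library kept both calls, with changes of 1.19 to 1.33 and 0.95 to 1.23, the lowest value being that without E12.5 replicate 2. They were 1.20 and 1.09 without E10.5 replicate 3. The second interval gave -0.12 ± 0.15 (adjusted p = 0.646).

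Eya1, the branchio-oto-renal syndrome gene, was at 91.8, 111 and 89.1 CPM at E10.5, 143, 120 and 129 CPM at E11.5 and 85.8, 104 and 81.9 CPM at E12.5. Its E11.5 libraries were above all others, and E10.5 and E12.5 overlapped. The fall between E11.5 and E12.5 was 0.53 in size (log2 -0.53 ± 0.13, adjusted p = 0.0258). It was lost without any of the E11.5 libraries or without E12.5 replicate 1 (adjusted p of 0.0586 to 0.108). The rise before it, 0.43 ± 0.12, did not pass the test with all libraries (adjusted p = 0.0596) and was 0.37 with an adjusted p of 0.00649 without E10.5 replicate 3. E12.5 against E10.5 gave -0.09 ± 0.18 (adjusted p = 0.74), and -0.15 (adjusted p = 0.54) without that library.

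Eya2 and Eya3 passed none of the tests between pairs of stages when all libraries were kept and no GC trend was removed. Eya2, which is best known from placodes and muscle precursors, was at 83.1–99.0 CPM at E10.5, 69.5–80.9 CPM at E11.5 and 70.9–78.1 CPM at E12.5. Its E10.5 libraries were above all later ones, but the differences of -0.30 ± 0.11 at E11.5 (adjusted p = 0.12) and -0.29 ± 0.16 at E12.5 (adjusted p = 0.222) did not pass the test. Without E10.5 replicate 3 they were -0.37 (adjusted p = 0.0027) and -0.35 (adjusted p = 0.0943). With each library's GC trend removed and all libraries kept, the first was also called, at -0.29 (adjusted p = 0.0301). Eya3, the most broadly expressed of the family, was at 123–130 CPM at E10.5 and 125–134 CPM at E11.5, with a difference of 0.03 ± 0.09 (adjusted p = 0.845). At E12.5 it was at 88.4–118 CPM, below every earlier library, and differed by -0.34 ± 0.13 from E11.5 (adjusted p = 0.109) and by -0.30 ± 0.17 from E10.5 (adjusted p = 0.228). With E10.5 replicate 3 left out, the differences of Eya3 from E10.5 were 0.04 (adjusted p = 0.63) at E11.5 and -0.29 (adjusted p = 0.215) at E12.5. Without E12.5 replicate 2, Eya3 was called between E11.5 and E12.5, at -0.46 (adjusted p = 0.00898).

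Both Dach genes, which encode the corepressor arm of the network, went down. Dach1, a gene of limb, eye and nervous system development, was at 72.0, 62.2 and 79.5 CPM at E10.5, 45.1, 55.7 and 44.3 CPM at E11.5 and 17.9, 26.2 and 24.0 CPM at E12.5. The 3 stages did not overlap at any step. Dach1 fell by 0.55 on the log2 scale in the first interval (SE 0.14, adjusted p = 0.0398), by 1.10 in the second (SE 0.17, adjusted p = 0.00224) and by 1.64 over the whole span (SE 0.20, adjusted p = 0.00021). The calls of the second interval and of the whole span held in all 6 fits that left out 1 library. The first interval gave -0.46 (adjusted p = 0.00383) and the whole span -1.55 (adjusted p = 0.00026) without E10.5 replicate 3. The call of the first interval was lost without E10.5 replicate 1 or any of the E11.5 libraries (adjusted p of 0.0564 to 0.186). The fall in the second interval was under 1 on the log2 scale without E11.5 replicate 2 or without E12.5 replicate 1, with a smallest size of 0.95 (log2 -0.95).

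Dach2, the X-linked paralog, had the lowest level per length of the 9 genes at every stage. It was at 9.92, 8.48 and 15.3 CPM at E10.5, 5.54, 4.71 and 4.53 CPM at E11.5 and 5.07, 4.74 and 4.0 CPM at E12.5. The E10.5 libraries were above all later ones, with replicate 3 the highest, and the later stages overlapped. Dach2 fell by 1.18 on the log2 scale between E10.5 and E11.5 (SE 0.25, adjusted p = 0.0215) and by 1.28 between E10.5 and E12.5 (SE 0.28, adjusted p = 0.00733). Without E10.5 replicate 3 these were -0.90 (adjusted p = 0.00151) and -0.98 (adjusted p = 0.00909), so both stayed called and went under 1 on the log2 scale. The E11.5 call was lost without any of the E11.5 libraries (adjusted p of 0.0854 to 0.111), and the E12.5 call held in all 6 fits.

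Counted over the network, 3 of the 9 genes (33.3%) changed between E10.5 and E11.5 at an adjusted p of at most 0.05, with Eya4 up and Dach1 and Dach2 down, where 11.8% of the 15708 genes tested did (6.19% rose and 5.58% fell). Eya4 and Dach2 were also DEGs, which by the study's threshold change by 1 or more on the log2 scale (6.07% of all genes). Between E11.5 and E12.5, 3 of 9 changed (33.3%, against 12.2% of 15808 genes, 7.61% of them rising and 4.57% falling), and all 3, Six4, Eya1 and Dach1, fell. Dach1 was the 1 DEG there (5.10% of all genes). Over the whole span 5 of 9 changed (55.6%, against 24.6% of 15899 genes, 14.0% up and 10.5% down), with Six2, Six5 and Eya4 up and Dach1 and Dach2 down, and Eya4, Dach1 and Dach2 were DEGs (15.0% of all genes).

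The libraries of the stages compared did not overlap for 7, 5 and 8 of the 9 genes in the same order, against 36.7%, 35.3% and 42.4% of all genes. The median log2 fold change of the members was 0.31, -0.12 and -0.29, and that of all genes -0.03, 0.02 and -0.01. The 3 comparisons share libraries, since each stage enters 2 of them. Without E10.5 replicate 3, 7 genes changed between E10.5 and E11.5, with Six2, Six4, Eya1 and Eya2 added, and 39.6% of all genes did. Without E11.5 replicate 1, 2 or 3, Eya4 alone was called, with 2.95%, 5.19% and 3.25% of all genes. Without E12.5 replicate 2, 5 genes changed between E11.5 and E12.5, with Six5 and Eya3 added, and 30.8% of all genes did. Without E12.5 replicate 1 or 3, 3 genes changed between E10.5 and E12.5, which left out Six2 and Six5, with 13.4% and 15.7% of all genes.

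**Figure D2:**
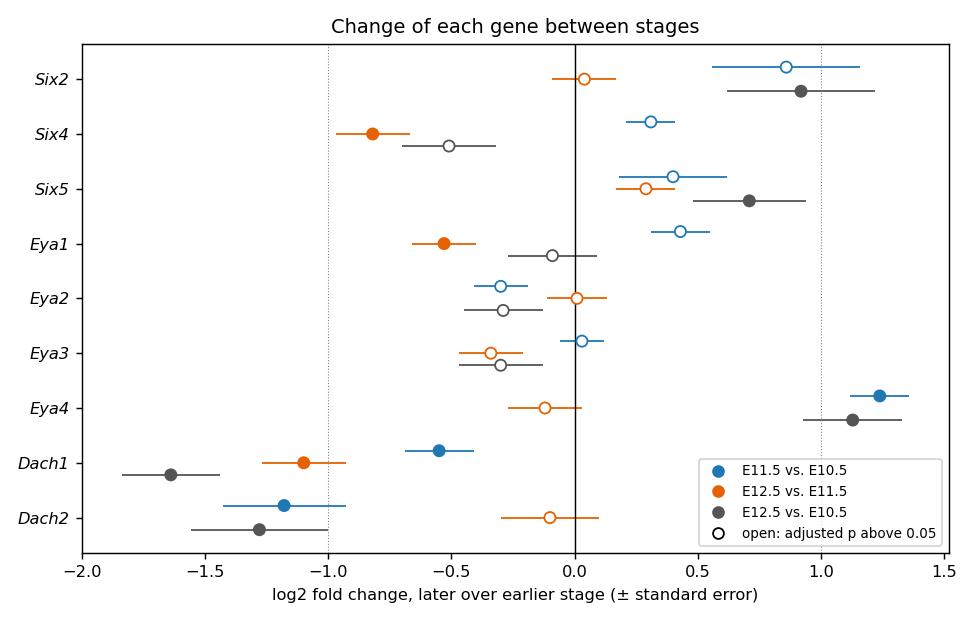
Log2 fold change between stages, positive where the later stage is higher (horizontal axis, with its standard error), for the 9 genes in the 3 comparisons. Filled points have an adjusted p of at most 0.05 and dotted lines mark a change of 1. Eya4 lies beyond 1 at 1.24 and 1.13, Dach1 at -1.10 and -1.64, and Dach2 at -1.18 and -1.28.

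**Figure D3:**
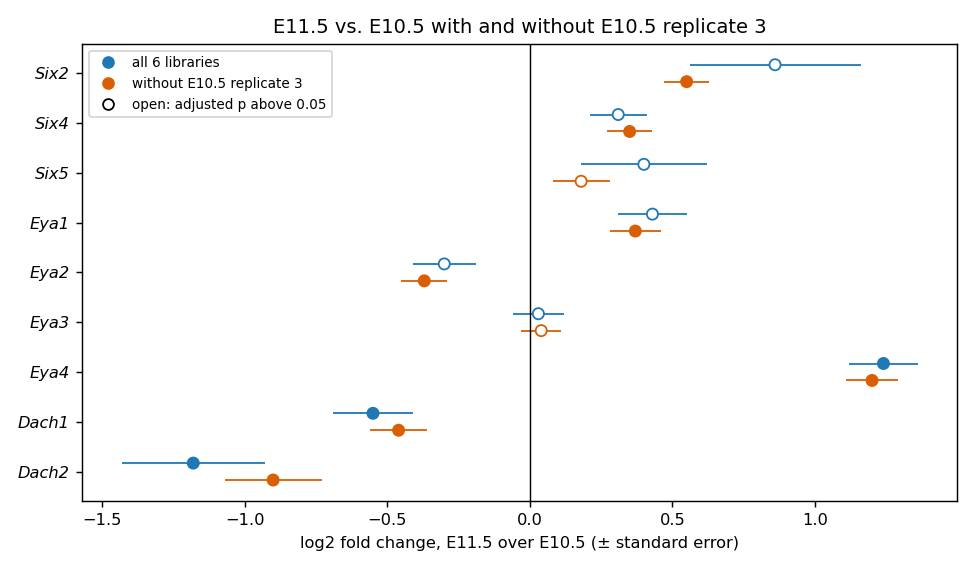
Log2 fold change between E10.5 and E11.5 (horizontal axis, with its standard error) for the 9 genes, with all 6 libraries and without E10.5 replicate 3. Filled points have an adjusted p of at most 0.05: 3 genes with all libraries and 7 without that library. Without it the change is smaller in size for Six2, Six5, Eya1, Eya4, Dach1 and Dach2, and larger for Six4, Eya2 and Eya3.

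Tested on all 9 libraries together, 6 of the 9 genes differed between stages, against 28.3% of 16375 genes. These were Dach1 (adjusted p = 8.05e-05), Eya4 (0.000269), Dach2 (0.00197), Six4 (0.00463), Eya1 (0.0297) and Six2 (0.0369). Six5 (0.0516), Eya3 (0.125) and Eya2 (0.129) did not pass. Dach1, Dach2, Eya4 and Six4 stayed called whichever library was left out. Eya1 and Six2 held in 3 of the 9 each, and were both lost without E11.5 replicate 1, 2 or 3 and without E12.5 replicate 1 or 3. Six2 was also lost without E12.5 replicate 2 and Eya1 without E10.5 replicate 1.

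Whether a gene changed unequally in the 2 intervals was tested by the change of the second interval minus that of the first. Eya4 passed this test, at -1.34 ± 0.27 (adjusted p = 0.0346), where 1.18% of all genes did. Six4 (-1.12 ± 0.26, adjusted p = 0.0569) and Eya1 (-0.96 ± 0.25, adjusted p = 0.0961), both highest at E11.5, did not. For Dach1, which fell at both steps, the difference between the falls was -0.53 ± 0.29 (adjusted p = 0.511), and for Dach2 it was 1.09 ± 0.43 (adjusted p = 0.321). The Eya4 call held in 3 of the 9 fits that left out 1 library, those without E10.5 replicate 1, E10.5 replicate 3 or E12.5 replicate 2, and the other 6 gave adjusted p of 0.0652 to 0.235. With each library's GC trend removed it was lost as well (-1.25, adjusted p = 0.0603).

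Per length, Six2 led at every stage, at 76.3 ± 32.6 FPKM (SD, n = 3), 139 ± 11.3 and 142 ± 12.4 FPKM in stage order. Eya2 came next, at 30.7 ± 2.74, 24.8 ± 1.97 and 24.9 ± 1.38 FPKM, and overlapped with Eya3 at E11.5 and with Six5 at E12.5. At E10.5 the order went on with Eya3 (22.3), Six5 (14.6), Eya1 (12.3), Dach1 (9.63), Six4 (5.72), Eya4 (3.72) and Dach2 (1.13), and of these neighbours the libraries of Six5 and Eya1 alone overlapped. Eya4 moved from the 8th place at E10.5 to the 6th at E11.5 and E12.5, above Six4 and Dach1, with 8.74 ± 0.537 and 8.05 ± 1.72 FPKM. Six4 and Dach1 overlapped at E11.5 (7.07 ± 0.495 and 6.54 ± 0.863 FPKM) and at E12.5 (3.98 ± 0.792 and 3.06 ± 0.60 FPKM).

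Within the 4 Eya genes, the summed level was 69.1 ± 4.37 FPKM (SD, n = 3), 72.9 ± 0.76 and 62.3 ± 6.65 FPKM in stage order, and the shares shifted beneath it. Eya4 made up 5.40% ± 0.663 of the sum at E10.5, then 12% ± 0.857 and 12.8% ± 1.31, and no later library came down to the E10.5 range of 4.74–6.07%. Eya2 went from 44.4% ± 1.61 to 34.0% ± 2.35 and then to 40.2% ± 3.17, and no E11.5 library was within the range of either other stage. Eya1 was at 17.8% ± 1.17, 22.8% ± 2.23 and 18.3% ± 0.492, and Eya3 at 32.3% ± 1.99, 31.2% ± 0.831 and 28.7% ± 1.74.

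Of the 3 Six-family genes described here, Six2 held 77.6% ± 5.60, 83.9% ± 0.79 and 83.7% ± 0.685 of the summed FPKM, and Six4 6.85% ± 3.70, 4.31% ± 0.589 and 2.36% ± 0.548. The E10.5 libraries spanned 71.2–81.7% for Six2 and 4.53–11.1% for Six4, with E10.5 replicate 3 at 71.2% and 11.1%. The sum of the 3 genes was 96.7 ± 36.7 FPKM, 165 ± 12 and 170.0 ± 13.5 FPKM in stage order. Its spread at E10.5 came with E10.5 replicate 3, at 54.4 FPKM the lowest of the 9 libraries. The Dach genes summed to 10.8 ± 1.51, 7.04 ± 0.849 and 3.52 ± 0.575 FPKM, of which Dach1 held 89.7% ± 1.88, 92.9% ± 1.22 and 86.6% ± 3.48. The Dach sums did not overlap between stages, with 9.31–12.3, 6.45–8.01 and 2.89–4.01 FPKM. With 3 libraries against 3, an exact permutation test of such a share or sum cannot go below p = 0.1, so none was used.

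**Figure D4:**
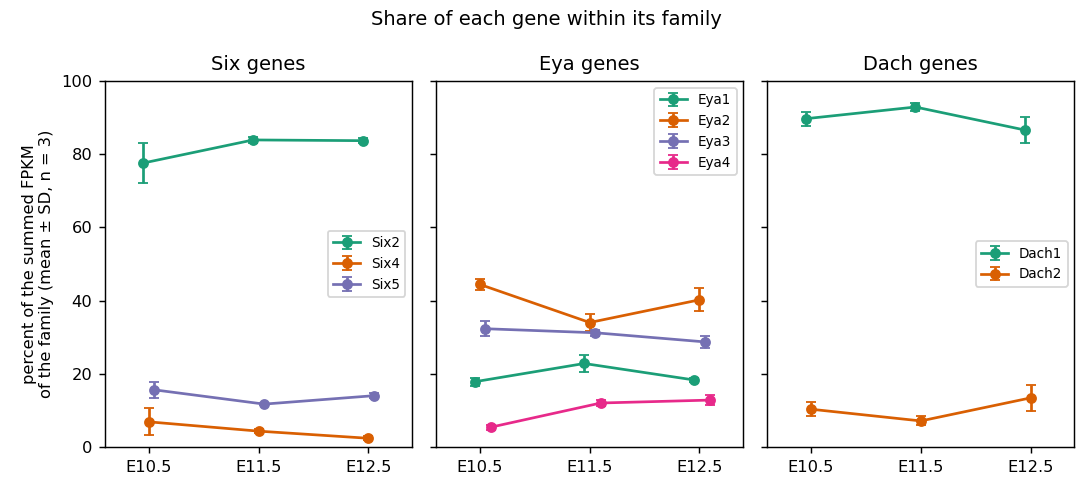
Share of each gene in the summed FPKM of the listed genes of its family (vertical axis, percent, mean ± SD, n = 3) against stage. Eya4 rises from 5.40% to 12% and 12.8% of the Eya sum, while Six2 and Dach1 hold most of theirs at every stage.

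Six3 and Six6, homeobox genes of the forebrain and eye in the same family, were measured beside the 9 genes. Six3 was at 53.8 ± 12.8 CPM (SD, n = 3) at E10.5, then 30.2 ± 0.832 and 32.6 ± 3.77 CPM, and fell by 0.83 in the first interval (log2 -0.83, adjusted p = 0.0203). Six6 went from 19.3 ± 8.53 CPM to 1.90 ± 0.394 and 1.33 ± 0.415, a log2 change of -3.34 in the first interval (adjusted p = 0.00195). Leaving out E10.5 replicate 3, these changes were -0.63 (adjusted p = 0.000297) and -2.96 (adjusted p = 2.15e-06). The forebrain and eye field markers moved in the same direction. Their summed level was 144–210 CPM at E10.5, 18.9–25.1 CPM at E11.5 and 14.6–21.5 CPM at E12.5, and 6 of 8 fell in the first interval and 7 of 8 over the whole span, none rising. No marker of that list was at 3 counts or fewer in every library. Dach1 and Dach2 are also expressed in the developing forebrain and eye, and the part of that tissue in their higher levels at E10.5 was not tested.

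The other marker lists were looked at in the same way. The olfactory placode and neuron markers summed to 214–246 CPM at E10.5, 182–196 CPM at E11.5 and 221–233 CPM at E12.5, and 2 of 8 fell in the first interval. The lens list summed to 19.6–28.3, 11.6–13.2 and 22.8–28.7 CPM, and its crystallins Cryaa, Cryba1 and Crygs were at 3 counts or fewer in every library. Most of that sum was Maf, at 16.4, 9.73 and 23.2 CPM on average. Prox1 was at 6.63, 2.67 and 3.11 CPM and Foxe3 at 1.15, 0.0 and 0.0188 CPM. Facial mesenchyme markers summed to 815–1390, 1790–1860 and 1870–1930 CPM, with 3 of 6 rising in the first interval, the direction of Six2 and Eya4. Skeletal muscle markers summed to 40.5–74.9, 100–117 and 64.4–83.6 CPM. Nearly all of that sum was Pax7, a gene of muscle precursors and of neural crest, at 61.8, 106 and 70.3 CPM on average, and the other 5 were each below 1 CPM on average at every stage. Bone and cartilage markers summed to 573–996, 521–607 and 545–738 CPM, mostly Col2a1, which was at 688, 402 and 377 CPM on average. In each interval 3 of the 5 rose, Runx2, Sp7 and Acan, by 4.49, 4.10 and 5.83 over the whole span (adjusted p = 4.41e-05, 5.31e-06 and 5.08e-06), and the median log2 fold change of the list was 2.0, 0.73 and 4.10, while Col2a1 fell over the span (-0.86, adjusted p = 0.0253). Genes of the lens, muscle, bone and cartilage, and surface epithelium lists were named after their values were seen. Summed levels were, for red blood cell genes, 1810–2720, 3090–3440 and 3540–4590 CPM, and for endothelial markers 64.5–209, 212–234 and 162–233 CPM. Surface epithelium markers summed to 372–675, 367–388 and 504–534 CPM. Of these, Krt5 rose from 2.12 to 34.5 and 151 CPM on average. Krt8 and Krt18 fell over the span (-0.83 and -1.02, adjusted p = 0.0151 and 0.0091). Epcam, Cdh1 and Trp63 were not called in any comparison. The part of these cell types in the members' changes was not tested.

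Genes of proteins known to work with the network were counted beside it. Of 12 cofactors, among them the Groucho-type corepressors Tle1 to Tle4 and the Dach-related Ski and Skil, 1 rose between E10.5 and E11.5, none passed between E11.5 and E12.5, and 2 rose over the whole span, none falling, where 11.8%, 12.2% and 24.6% of all genes changed. Aes, a short Groucho-type protein, was at 190 ± 26.5, 269 ± 16.3 and 336 ± 67.1 CPM (SD, n = 3) and rose by 0.83 over the span (adjusted p = 0.0128). Tle2 was at 8.66 ± 5.42, 14.6 ± 2.33 and 23.1 ± 6.52 CPM and rose by 1.43 (adjusted p = 0.0425). Leaving out E10.5 replicate 3, these rises were 0.74 (adjusted p = 0.0183) and 0.99 (adjusted p = 0.013). Without that library 2 cofactors rose in the first interval and 2 over the span, where 39.6% and 30.1% of all genes changed. The median log2 fold change of the list was 0.08, -0.16 and -0.07.

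Of 19 regulators of placode ectoderm, 18 were tested between E10.5 and E11.5, where 2 rose and 6 fell, against 6.19% and 5.58% of all genes. Of 16 tested between E11.5 and E12.5, 1 rose and 2 fell (all genes 7.61% and 4.57%), and of 18 over the whole span 4 rose and 6 fell (all genes 14.0% and 10.5%), with median log2 fold changes of 0.03, 0.18 and 0.26. With E10.5 replicate 3 left out, 7 rose and 6 fell in the first interval, where 39.6% of all genes changed. Over the span 6 rose and 6 fell, where 30.1% of all genes changed. Pax3, a gene of the trigeminal placode and of neural crest, rose from 34.9 ± 8.63 CPM (SD, n = 3) at E10.5 to 92.6 ± 9.97 and 107 ± 9.81 CPM (1.63 over the span, adjusted p = 0.000288), and Irx1 from 3.71 ± 1.44 to 5.70 ± 1.15 and 9.08 ± 2.0 CPM (1.30 over the span, adjusted p = 0.0126). Sox3 fell from 52.9 ± 8.09 to 5.90 ± 1.13 and 3.29 ± 1.69 CPM (-3.99 over the span, adjusted p = 1.34e-05). Pax2 went from 13.4 ± 3.82 to 0.297 ± 0.292 and 0.204 ± 0.14 CPM (adjusted p = 7.92e-06 over the span). All 4 were also called over the span without E10.5 replicate 3, Pax3 at 1.45 (adjusted p = 0.0002), Irx1 at 1.08 (adjusted p = 0.0172), Sox3 at -4.04 (adjusted p = 1.46e-05) and Pax2 with an adjusted p of 9.23e-06. Sox3 and Pax2 are also genes of the neural tube and the optic stalk.

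Of 9 proposed targets of Six-family and Eya proteins, 8 were tested. None rose and 2 fell between E10.5 and E11.5, 1 rose and 3 fell between E11.5 and E12.5, and none rose and 4 fell over the whole span. Of all genes 6.19% rose and 5.58% fell in the first interval, 7.61% and 4.57% in the second, and 14.0% and 10.5% over the span. Their median log2 fold changes were -0.50, -0.16 and -0.58. Sall1, a zinc finger gene of kidney and limb progenitors, was at 36.7 ± 5.34, 26.9 ± 1.87 and 10.5 ± 2.60 CPM (SD, n = 3) and fell by 1.80 over the span (log2 -1.80, adjusted p = 0.000262). Mycn, a driver of proliferation in the embryo, was at 137 ± 16.1, 86.3 ± 8.22 and 60.0 ± 3.42 CPM and fell by 1.18 (log2 -1.18, adjusted p = 0.000599). Leaving out E10.5 replicate 3, these changes were -1.68 (adjusted p = 0.000329) and -1.24 (adjusted p = 0.000265). Without that library 1 target rose and 4 fell, of 8 tested in the first interval and of 9 over the span. Of all genes 39.6% and 30.1% changed there.

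For the 3 DEGs of the whole span, the genes whose profiles over the 9 libraries were most like theirs were sought among 16366 genes, by the root mean square difference of log2 CPM after each gene was centred on its own mean. For Eya4 these were Astn1, a neuronal adhesion gene, at 0.0884, and Lrrc75b at 0.121, where the spread of Eya4 around its own mean was 0.576. Astn1 was at 23.9, 56.8 and 56.2 CPM on average at the 3 stages. For Dach1 they were Stard8 at 0.135 and Pctp at 0.139, with means of 31.2, 21.3 and 9.44 CPM and of 24.6, 18.5 and 8.44 CPM, where the spread of Dach1 was 0.711. For Dach2 they were Six3os1 at 0.145 and Adgrg1 at 0.15, where its spread was 0.604. Six3os1 is transcribed from the opposite strand at Six3, and reads from the 2 genes may not be told apart where counting did not use strand. It was at 123, 61.3 and 52.6 CPM, and Adgrg1 at 51.0, 23.5 and 23.2 CPM.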

How the data were processed

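RNA-seq was done on the lambdoidal junction of 3 embryonic stages, with 3 libraries a stage. The authors mapped reads to mm10 with HISAT2 2.0.5, and featureCounts gave the reads per gene. Strand setting and treatment of multi-mapped reads are not given in the sources used here. The deposited count columns hold raw read counts, and the deposited FPKM columns the authors' length-scaled values. The deposited signal columns (normalized stage means), log2 fold changes and p-values are the authors' own comparisons and were not used. Depth was 16581009–20836804 counts a library. PCR reads carry no molecular identifiers, so precision from depth covers counting error only, and p-values measure the spread between pooled libraries.

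Stages were compared in pairs, 6 libraries to a fit, in edgeR 4.0.16 (R 4.3.3, limma 3.58.1) with filterByExpr, TMM and the quasi-likelihood test, with Benjamini-Hochberg adjustment over all genes tested. A gene changed (rose or fell) at an adjusted p of at most 0.05, and was a DEG where the absolute log2 fold change was also at least 1. All 9 libraries were fitted for the test of the 3 stages and of the difference between intervals. The fits were tested on simulated data. Alternatives were DESeq2 size factors, upper quartile scaling, DESeq2 1.42.0, all genes with at least 1 count, at least 10 counts in every library, 1 fit of all libraries, a block for the replicate number, removal of each library's GC trend (lowess, span 0.3), both together, and each library left out. Log2 CPM used a prior count of 2. Tables and figures used Python 3.11.15, numpy 2.4.6, pandas 2.3.3 and matplotlib 3.10.9.

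Of the identifiers, 54495 were in GENCODE vM21, 98.33% of them with the same coordinates, among these all 9 members. Promoter sequences are RefSeq's (GRCm38.p6). The genes, the lists and the motifs were chosen with earlier results of these data known. Named were all 9 genes, Six3 and Six6, in each list up to 2 called genes in each direction with the smallest p over the whole span, and for each DEG of that span the 2 genes most alike. Some cell type markers were also named. The results of some further genes are not reported here.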

Additional observations from a re-analysis of the deposited data

Results flagged for a closer look

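Eya4 changed unequally in the 2 intervals. Its change between E11.5 and E12.5 minus that between E10.5 and E11.5 was -1.34 on the log2 scale (SE 0.27, adjusted p = 0.0346 in edgeR's quasi-likelihood test), and 1.18% of the 16375 genes tested differed in this way. All 3 libraries of E11.5 were above the 3 of E10.5, and those of E12.5 overlapped with E11.5. The size was -1.52 to -1.25 when 1 library was left out, and the call held in 3 of those 9 fits and in 7 of the 8 other alternatives. It was lost with each library's GC trend removed (-1.25, adjusted p = 0.0603).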

How the results depend on the processing

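Of 711 results of single genes under the alternatives, 608 kept their direction and their side of the threshold, 41 kept the direction and lost the call, 46 gained one and 16 changed sign, none of these 16 from a called result. The calls of Eya4 at both later stages against E10.5, of Dach1 and Six4 in E12.5 vs. E11.5, and of Dach1 and Dach2 in E12.5 vs. E10.5 held in every alternative run.

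The number of genes that changed between E10.5 and E11.5 was 3, and it was 5 with DESeq2, 5 with every gene of at least 1 count, 8 with the GC trend removed, 5 with the block and the GC trend removed together, and 1–7 with 1 library left out. Of all genes 13.5%, 8.06%, 22.5% and 18.5% changed there in the same order, and 2.95–39.6% with 1 library left out. DEGs were 1–2 with 1 library left out. Between E11.5 and E12.5, 2–5 genes changed and 0–1 were DEGs with 1 library left out, and between E10.5 and E12.5, 3–5 changed and 2–4 were DEGs. Of all genes 4.41–30.8% and 13.4–30.1% changed in those fits. Over the 3 stages 4–8 genes changed with 1 library left out, against 19.4–37.2% of all genes. Genes with unequal change in the 2 intervals were 2 with upper quartile scaling, 3 with DESeq2, 3 with every gene of at least 1 count, 3 with the block and the GC trend removed together, and 0–3 with 1 library left out. Of all genes 1.22%, 2.61%, 2.32% and 1.97% passed this test in the same order, and 0.160–2.59% with 1 library left out. The cause was not tested.

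Sign changes were in small differences. Six2 in E12.5 vs. E11.5 was 0.04, and -0.18 with the GC trend removed, -0.18 with the block as well, and -0.03 to 0.09 with 1 library left out. Eya2 there was 0.01, and -0.01 with DESeq2 size factors, -0.01 with DESeq2, -0.02 with every gene of at least 1 count, -0.06 with the GC trend removed, -0.06 with the block as well, and -0.05 to 0.05 with 1 library left out. Eya1 in E12.5 vs. E10.5 was -0.21 to 0.01 and Six5 in the difference between intervals -0.33 to 0.08 with 1 library left out.

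The replicate numbers were not treated as pairs in the main fits. Deviations of same-numbered libraries correlated at -0.151 to 0.22, and in no comparison was every correlation above 0.1. In E12.5 vs. E10.5 all were positive, at 0.178, 0.0701 and 0.22. With the replicate number as a block, 2 and 3 genes changed in the first and the second interval and 6 over the whole span. Of all genes 8.07%, 13.9% and 28.1% changed there. Dach1 was not called in the first (adjusted p = 0.0964 in edgeR) and Six4 was called over the span (adjusted p = 0.0494).

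Counts without length scaling moved 24 of 27 family shares by more than 1 SD, as genes differ in length.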
